A study of Rattus norvegicus with 11 samples.

Results

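The subunits of the GABA-A receptor, the chloride channel opened by the transmitter GABA, were followed in rat hippocampus on 2 diets. The genes considered, chosen with earlier results of these data known, were Gabra4, Gabra5, Gabra6, Gabrb1, Gabrb2, Gabrg1 and Gabrd. They were found on the array as the probe sets whose single platform gene symbol is 1 of these names, a rule that uses no measured value. This gave 8 probe sets for 7 genes, of 12783 single-symbol probe sets for 10411 genes, with 2 probe sets for Gabrb2 and 1 for each other gene. All 8 probe sets passed the filter on low signals.

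The samples were total RNA of rat hippocampus on 11 arrays. Of these, 6 came from animals fed a control diet and 5 from animals fed a ketogenic diet, a high-fat, low-carbohydrate food that the labels describe as protecting against epileptic seizures. Strain, age, sex, time on the diet and any seizure treatment are not given in the labels used here. Whether the samples are separate animals is not stated, and the p-values then reflect only the spread between samples, which may be technical. In bulk tissue, fewer cells of a type and less RNA per cell cannot be told apart.

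A GABA-A receptor is a ring of subunits around a chloride pore, usually built from alpha, beta and a gamma or delta subunit. Alpha and beta subunits together form the GABA binding site, gamma subunits take part in benzodiazepine binding and synaptic placement, and the delta subunit is typical of extrasynaptic receptors that carry tonic inhibition. In hippocampus Gabra5 is strongly expressed by pyramidal cells, Gabra4 and Gabrd are partners in dentate granule cells, and Gabra6 is known mainly from granule cells of the cerebellum. Many antiepileptic drugs and neurosteroids act on these receptors.

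Of the 8 probe sets, 2 were lower on the ketogenic diet and 0 were higher by limma at an adjusted p under 0.05. Gabra6 fell by 0.65 on the log2 scale and Gabrg1 by 0.38. The other 6 probe sets, for Gabra4, Gabra5, Gabrb1, Gabrb2 and Gabrd, did not pass the threshold, and at an unadjusted p under 0.05 there was 1 higher, Gabrb1. Over all 11899 tested probe sets 16.5% were called, 7.87% lower and 8.62% higher, so 2 of 8 called, both lower, is a small count beside a common event. The share called over all was 6.7% without ketogenic replicate 4 and 26.6% without ketogenic replicate 3, and on the values as deposited 38.3% of all calls were higher, against 52.3% here. The median log2 change of the 8 was 0.09, with 5 positive and 3 negative, against a median of -0.0041 over all tested probe sets.

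The promoters of the genes with a called change, Gabra6 and Gabrg1, are shown beside those of Gabrb2 and Gabrb1, which lie in the same chromosomal subunit clusters and were not called. Gabra6 and Gabrb2 are neighbouring protein-coding genes on chromosome 10, pointing away from each other, while Gabrb1, Gabra4 and Gabrg1 lie together on chromosome 14. The sequences are the 250 bases before the gene start in the RefSeq promoter table of the assembly GRCr8, in which all 7 genes were found. The positions are chr10:27327235-27327484 on the minus strand for Gabra6, chr10:27439543-27439792 on the plus strand for Gabrb2, chr14:37750042-37750291 on the plus strand for Gabrg1 and chr14:36902894-36903143 on the minus strand for Gabrb1. All 4 are upstream of the annotated start and read 5′ to 3′ along the gene. Capitals mark matches to CCAAT, the CCAAT box, which reads ATTGG on the other strand.
Gabra6: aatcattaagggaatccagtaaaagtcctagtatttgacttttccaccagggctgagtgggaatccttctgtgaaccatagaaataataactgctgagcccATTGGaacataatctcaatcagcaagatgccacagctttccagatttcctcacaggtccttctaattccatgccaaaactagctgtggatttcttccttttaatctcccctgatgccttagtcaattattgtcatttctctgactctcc
Gabrb2: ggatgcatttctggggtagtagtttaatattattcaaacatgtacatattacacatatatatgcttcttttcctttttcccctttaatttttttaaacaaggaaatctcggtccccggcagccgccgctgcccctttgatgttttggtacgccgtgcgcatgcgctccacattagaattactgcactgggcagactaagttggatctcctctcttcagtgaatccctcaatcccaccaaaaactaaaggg
Gabrg1: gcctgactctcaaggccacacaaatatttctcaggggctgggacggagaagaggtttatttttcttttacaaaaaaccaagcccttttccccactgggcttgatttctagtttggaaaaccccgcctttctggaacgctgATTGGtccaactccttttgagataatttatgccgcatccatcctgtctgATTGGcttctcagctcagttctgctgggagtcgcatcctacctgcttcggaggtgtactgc
Gabrb1: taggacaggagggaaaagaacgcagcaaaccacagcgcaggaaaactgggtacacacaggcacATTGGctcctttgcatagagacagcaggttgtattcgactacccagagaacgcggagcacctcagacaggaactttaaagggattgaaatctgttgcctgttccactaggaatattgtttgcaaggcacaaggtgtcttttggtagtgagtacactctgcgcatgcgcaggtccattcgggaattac

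CCAAT in either orientation occurred 1 time in the Gabra6 window, 2 times in that of Gabrg1 and 1 time in that of Gabrb1, and it was not found in the windows of Gabrb2, Gabra4, Gabra5 and Gabrd. The same letters were found in 34% of 33469 promoter windows of this length, so 3 of 7 is close to the background. The GC box GGGCGG, searched on both strands, was found in the windows of Gabra4, Gabra5 and Gabrd and in 30.5% of all windows. No window of the 7 genes held the TATA box TATAAA, the E-box CACGTG or the cAMP response element TGACGTCA, which 12.9%, 5.59% and 1.59% of all windows held. Base composition divided the family, with 71.6%, 76.4% and 74.0% G+C for Gabra4, Gabra5 and Gabrd, and 41.2%, 49.2%, 43.2% and 48.4% for Gabra6, Gabrb1, Gabrb2 and Gabrg1, against a median of 51.2% over all windows. The Gabra6 window held 0 CG dinucleotides and that of Gabrg1 held 6. These matches describe letters in a window and are not measured binding sites.

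Among the alpha subunits, Gabra6 (probe set 1369861_at) showed the largest difference of the 8 probe sets. Its normalized log2 intensity on the control diet had a lowest value of 5.76, a median of 6.16 and a highest value of 6.33. On the ketogenic diet it was 5.77, 5.37, 5.29, 5.56 and 5.30 in replicates 1 to 5. The groups met only at their edges, where ketogenic replicate 1 lay just above control replicate 6. The means were 6.11 ± 0.22 (SD, n = 6) and 5.46 ± 0.20 (SD, n = 5), a log2 fold change of -0.65 (SE 0.14, 95% interval -0.95 to -0.35, limma adjusted p = 0.0106), or a 1.57-fold lower signal. On the values as deposited the intensity was 73.5 ± 12.0 (SD, n = 6) and 40.9 ± 7.23 (SD, n = 5). Array medians on that scale were also lower on the ketogenic diet, as given below.

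The Gabra6 signal was low. Its mean over all arrays stood at percentile 36.1 of all probe sets, and its ketogenic mean stood 0.29 above the testing level of 5.17, the 25th percentile. The deposited table holds no detection calls, so how far this signal is above background is not known here. Among the 3967 tested probe sets with the lowest means, from 5.17 to 6.45, 5.29% were called lower and 6.15% higher, with a median log2 change of -0.03, a division by level that was made after the values had been seen. The direction of Gabra6 was negative under every alternative run in which it was tested, and it was called in all 11 fits that left out 1 array (log2 fold changes -0.73 to -0.60). The call was lost, at -0.47 (adjusted p = 0.856), when the 3 prime to 5 prime signal ratios of Gapdh and actin, which rise as RNA degrades, were covariates. Those ratios differed between the diets, and only 6 of 11899 probe sets were called in that fit.

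Because Gabra6 is best known from cerebellum, markers of cerebellar granule and Purkinje cells were read beside it. Of 11 granule cell genes listed, 7 were on the array and 5 were tested, and 0 were called by limma, with 1 lower at an unadjusted p under 0.05, the glutamate receptor subunit gene Grin2c. All 5 had negative log2 changes, with a median of -0.09. Cbln1, which organises parallel fibre synapses, lay below the testing level on both diets, at means of 4.83 and 4.80. The summed linear level of the 7 granule cell markers ran from 837 to 889 in the controls and from 736 to 953 in the ketogenic samples, so the groups overlapped and the ketogenic range was the wider. Most of this sum came from Grin2c and Neurod1, at control means of 8.38 and 8.14, so it says little about the dimmer markers. Markers at 0 cannot be told on this scale, and none of the 7 was at the floor on every array. Of 4 tested Purkinje cell genes 0 were called by limma, with 2 lower and 0 higher at an unadjusted p under 0.05, Car8 at -0.39 (adjusted p = 0.056) and Pcp2 at -0.34 (adjusted p = 0.123). The summed level of the 4 was 1295 to 1462 on control and 1215 to 1450 on ketogenic arrays, which overlapped. Most of it came from Itpr1, at a control mean of 10.12, while Car8 and Pcp2 had control means of 6.19 and 6.59. The overlap therefore says little about Car8 and Pcp2. Whether Grin2c, Neurod1 and Itpr1 mark cerebellar cells in hippocampal tissue was not tested, so neither sum is taken to measure those cells. The part of these cerebellar lists in the Gabra6 difference was not tested.

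Gabra5 (1371057_at), the alpha subunit of extrasynaptic receptors in hippocampal pyramidal cells, had a control range of 9.08 to 9.46 with a median of 9.31. Its ketogenic values were 9.19, 9.12, 8.90, 9.35 and 9.22 in replicates 1 to 5. Only ketogenic replicate 3 lay below all controls. The log2 fold change was -0.14 (SE 0.09, 95% interval -0.33 to 0.04, limma adjusted p = 0.263), and its sign turned when arrays were centred on the 75th percentile (0.011).

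Gabra4 (1369905_at), which pairs with the delta subunit in dentate granule cells and thalamus, ranged from 6.88 to 7.26 on the control diet with a median of 7.10. On the ketogenic diet it was 7.04, 7.07, 7.19, 7.39 and 7.47. Replicates 4 and 5 lay above all controls and the others within them. The log2 fold change was 0.14 (SE 0.10, 95% interval -0.07 to 0.35, limma adjusted p = 0.339). Neither Gabra4 nor Gabra5 passed the threshold, and their intervals reach 0.35 and -0.33 on the log2 scale.

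**Figure D1:**
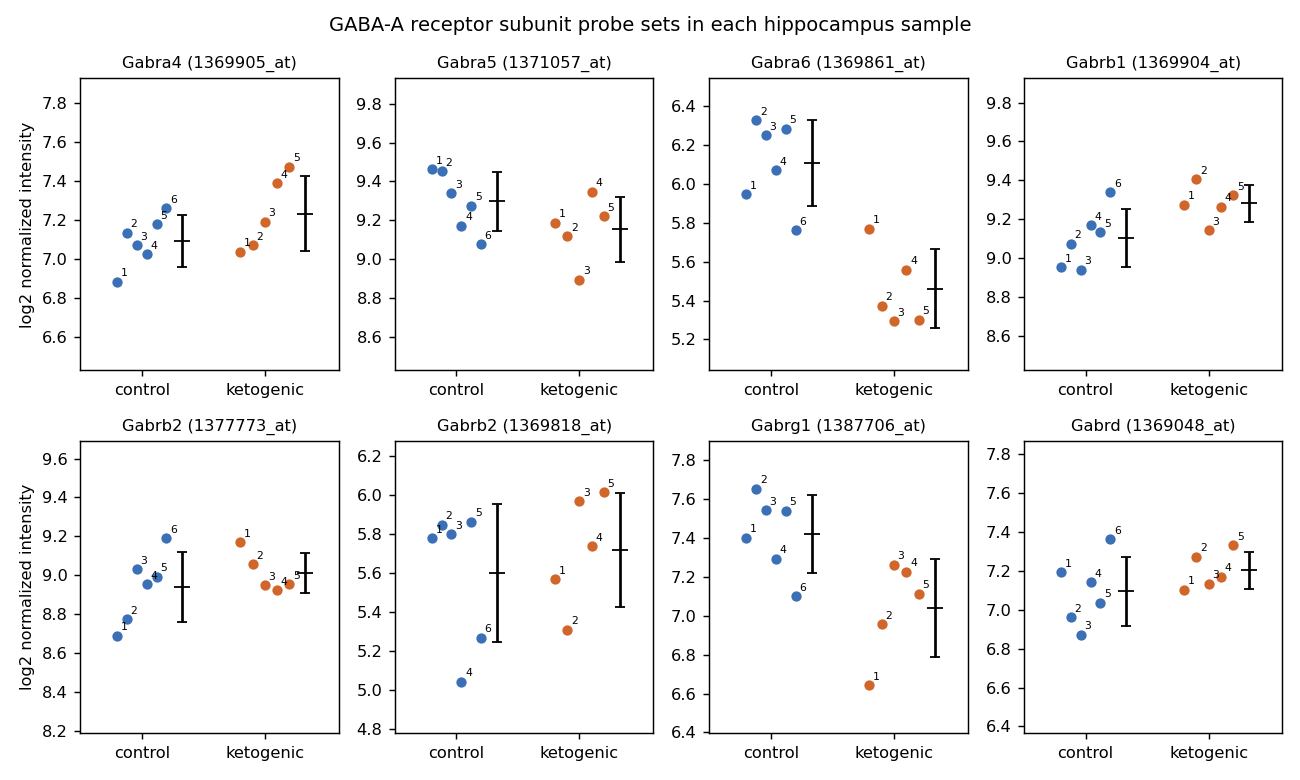
Normalized log2 intensity (vertical axes, each spanning 1.5 log2 units) of the 8 GABA-A subunit probe sets in 6 control (blue) and 5 ketogenic samples (orange). Numbers give the replicate, and the bars beside the points give the mean and SD. Gabra6 and Gabrg1 sit lower on the ketogenic diet, Gabrb1 has 4 of 5 ketogenic values above all controls but replicate 6, and the other panels overlap more.

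Of the beta subunits, which contribute to the GABA site and bind anaesthetics such as etomidate, Gabrb1 (1369904_at) had control values of 8.94 to 9.34 with a median of 9.10. Its ketogenic values were 9.27, 9.41, 9.14, 9.26 and 9.32. Control replicate 6, at 9.34, lay among the highest ketogenic values, and the next control, at 9.17, lay above ketogenic replicate 3 alone. The log2 fold change was 0.18 (SE 0.07, 95% interval 0.02 to 0.34, limma adjusted p = 0.107). Gabrb1 was past the threshold on the values as deposited (0.29, adjusted p = 0.0248), centred on the 75th percentile (0.33, adjusted p = 0.0182), with array weights (0.22, adjusted p = 0.0338), without control replicate 6 (0.23, adjusted p = 0.0348) and without ketogenic replicate 3 (0.22, adjusted p = 0.0495). Over its alternatives the adjusted p ran from 0.0182 to 0.996.

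Gabrb2 was measured by 2 probe sets at different signal levels. The brighter one, 1377773_at, ranged from 8.69 to 9.19 on the control diet with a median of 8.97, and was 9.17, 9.06, 8.95, 8.92 and 8.95 on the ketogenic diet. All ketogenic values lay within the control range. Its log2 fold change was 0.07 (SE 0.08, 95% interval -0.11 to 0.25, limma adjusted p = 0.579). The dimmer one, 1369818_at, spread from 5.04 to 5.86 with a median of 5.79 on the control diet, and was 5.57, 5.31, 5.97, 5.74 and 6.01 on the ketogenic diet. Control replicates 4 and 6 lay well below the other controls. Its log2 fold change was 0.12 (SE 0.19, 95% interval -0.28 to 0.52, limma adjusted p = 0.691), and its sign turned on the deposited scale (-0.075) and with the 75th percentile as the centre (-0.042).

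Gabrg1 (1387706_at), a gamma subunit of low benzodiazepine sensitivity that is also found in glia, was the other gene called lower. It ranged from 7.10 to 7.65 on the control diet with a median of 7.47. It was 6.64, 6.96, 7.26, 7.23 and 7.11 on the ketogenic diet. Replicates 1 and 2 lay below all controls, while replicates 3 to 5 lay between control replicate 6, at 7.10, and the next control, at 7.29. The means were 7.42 ± 0.20 (SD, n = 6) and 7.04 ± 0.25 (SD, n = 5), a log2 fold change of -0.38 (SE 0.12, 95% interval -0.64 to -0.12, limma adjusted p = 0.0464), or a 1.30-fold lower signal.

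The call of Gabrg1 was near the threshold. It held in 2 of 11 fits that left out 1 array, those without control replicate 6 and without ketogenic replicate 3, and in the other 9 the adjusted p was 0.0572 to 0.105 with log2 fold changes of -0.42 to -0.28. It was also lost without a filter on low values (adjusted p = 0.0853) and without a variance trend (adjusted p = 0.0634). Over all its alternatives the adjusted p ran from 0.0184 to 0.939.

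Astrocyte markers were read beside Gabrg1, since glia express it. Of 9 tested, 2 were called lower and 0 higher, with 0 higher also at an unadjusted p under 0.05. The called genes were Gfap, the filament protein of astrocytes, at -0.39 (adjusted p = 0.011), and Aqp4, their water channel, at -0.33 (adjusted p = 0.00969). The list median was -0.07, and the summed level was 10469 to 11161 on control and 9749 to 11102 on ketogenic arrays, which overlapped. The part of these markers in the Gabrg1 difference was not tested.

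Gabrd (1369048_at), the delta subunit of tonic inhibition, ranged from 6.87 to 7.36 on the control diet with a median of 7.09. It was 7.10, 7.27, 7.13, 7.17 and 7.33 on the ketogenic diet. All 5 ketogenic values lay within the control range. The log2 fold change was 0.11 (SE 0.09, 95% interval -0.09 to 0.31, limma adjusted p = 0.44). The partner genes Gabra4 and Gabrd thus had small positive estimates whose intervals include 0.

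**Figure D2:**
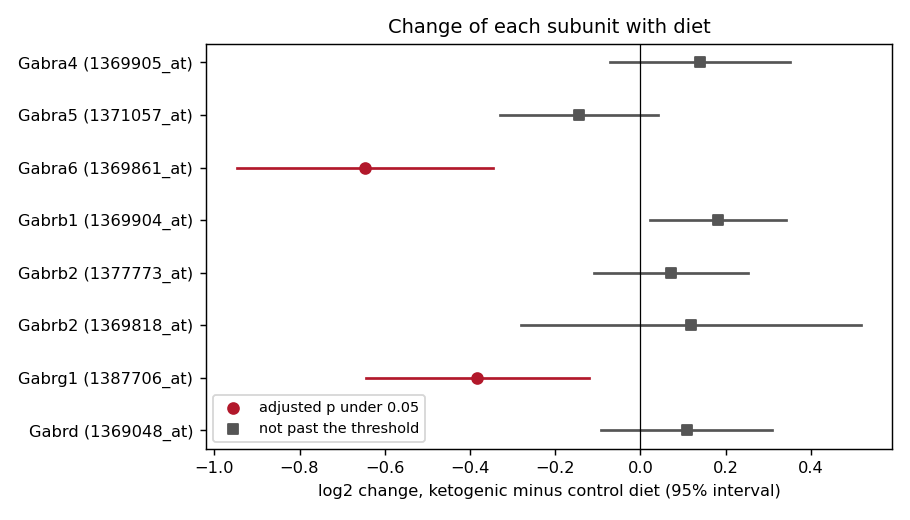
Log2 change of each subunit probe set, ketogenic minus control diet (horizontal axis), with its 95% interval from limma over 6 control and 5 ketogenic samples. Red circles passed the adjusted threshold and grey squares did not. The intervals of Gabra6 (-0.95 to -0.35) and Gabrg1 (-0.64 to -0.12) lie below 0, and that of Gabrb1 (0.02 to 0.34) lies above 0 without passing after adjustment.

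Ratios between subunit genes within an array do not change when a whole array is multiplied by a constant, and were computed for 3 pairs chosen after the values had been seen, as descriptions with no test. On the values as deposited, the log2 ratio of Gabra6 to the brighter Gabrb2 probe set, its neighbour on chromosome 10, lay between -3.39 and -2.30 in controls and between -3.97 and -3.47 on the ketogenic diet, and did not overlap. On the normalized values it lay between -3.43 and -2.45 and between -3.68 and -3.37, and overlapped. The deposited log2 ratio of Gabra6 to Gabra5, which lies on chromosome 1, was between -3.35 and -2.81 in controls and between -4.14 and -3.49 on the ketogenic diet, without overlap. Normalized, it was between -3.52 and -2.99 and between -3.92 and -3.42, and overlapped. The log2 ratio of Gabrg1 to Gabrb1 overlapped on both scales, at -2.23 to -1.31 and -2.72 to -1.89 as deposited. The separation of the Gabra6 ratios was thus seen on the deposited scale and not after quantile normalization. The mean ratios differed, ketogenic minus control, by -1.02 as deposited and -0.72 normalized for Gabra6 to Gabrb2, by -0.82 and -0.50 for Gabra6 to Gabra5, and by -0.74 and -0.56 for Gabrg1 to Gabrb1. Over single probe sets on the normalized values, the share whose groups did not overlap was 6.99%, and among the 8 subunit probe sets it was 0. No such share was computed for ratios or for the deposited scale, so the separated ratios have no matching background.

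Control replicate 6 stood at the ketogenic end of the control group for 7 of the 8 probe sets. It was the lowest control for Gabra5, Gabra6 and Gabrg1, and the highest for Gabra4, Gabrb1, the brighter Gabrb2 probe set and Gabrd. The Gapdh log2 ratio of 3 prime to 5 prime signal, a measure that rises as RNA degrades, was 0.15 on that array against -0.07 to 0.06 on the other controls. On the ketogenic arrays it was 0.34, 0.31, 0.13, 0.22 and 0.24, highest in replicate 1, where Gabrg1 was lowest and Gabra6 highest of its group. The actin log2 ratio did not single out these arrays. In control replicate 6 it was 0.740, within the control range and below control replicate 1. In ketogenic replicate 1 it was 0.837, below replicates 2 (0.985) and 5 (0.943) and above replicates 3 and 4. A link between these ratios and the subunit values of single arrays was not tested. The Gapdh ratio differed between diets by 0.20 (exact two-sided permutation test, p = 0.00649, adjusted 0.00866 over 4 array measures) and the actin ratio by 0.19 (exact p = 0.00216, the smallest possible, adjusted 0.00433). With both ratios as covariates, 6 of 11899 probe sets were called, none of them for a subunit. Gabra6 was then at -0.47 (adjusted p = 0.856), and Gabrg1 changed sign to 0.14 (adjusted p = 0.939). The actin ratio did not overlap between the diets, so this fit can hardly tell diet and ratio apart.

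Ketogenic replicate 3 scored -2.82 on the first principal component of all tested probe sets, against 18.6 to 25.7 for the other ketogenic and -17.3 to -10.6 for the control arrays. Its title ends in s2b, where those of the other 10 arrays end in s2, and the labels do not say what the suffix means. For the subunits it was mixed, the lowest ketogenic array for Gabra6, Gabra5 and Gabrb1 but the highest for Gabrg1. Without it Gabra6 was called at -0.60 and Gabrg1 at -0.44, and 3163 probe sets were called over all, or 26.6%.

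The hippocampal origin of the tissue was read from markers of its principal cells. Of 12 listed, 9 were on the array and tested, among them Prox1 of dentate granule cells at means of 8.21 and 8.07 and Wfs1 of CA1 pyramidal cells at 9.72 and 9.67. In this list 2 were higher, Camk2a (1.34) and Nptx1 (0.50), and 0 lower, with 0 lower also at an unadjusted p under 0.05. Of the 9 log2 changes 5 were positive and 4 negative, with a median of 0.11. The summed linear level of the 9 was 5279 to 6302 on control and 6440 to 7606 on ketogenic arrays. Such a sum is weighted to the brightest genes, and Camk2a alone went from a mean of 9.31 to 10.65. Markers of thalamus, where Gabra4 and Gabrd are also abundant, had a summed level of 338 to 418 on control and 290 to 320 on ketogenic arrays. Of 3 tested genes 1 was lower, Slc17a6 (-0.43), the brightest in that sum, and the uncalled Prkcd (-0.30) and Tcf7l2 (0.29) differed in sign. For 4 measured red blood cell genes, all called lower, the summed level was 1168 to 1623 and 295 to 385, and 1 of them, Alas2, passed the filter through its control values, with a ketogenic mean of 4.95 below the testing level. For choroid plexus the summed level was 915 to 2696 and 730 to 1206. Replicate 1 was the highest on each diet, and the next values were 1099 on control and 854 on ketogenic arrays. Of 8 tested choroid plexus genes 3 were lower, of which Cldn2, at a ketogenic mean of 4.98, likewise passed through its control values. For meninges the summed level was 1700 to 4618 and 1179 to 3060. Of 11 tested meninges genes 10 were negative, with a median log2 change of -0.50, and 2 were called lower, Col1a1 and Igfbp2. Of 6 tested oligodendrocyte genes 1 was lower, Mag, and of 9 tested interneuron genes 0 were called, with 1 higher and 0 lower at an unadjusted p under 0.05. None of these lists was tested for a part in the subunit differences.

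**Figure D3:**
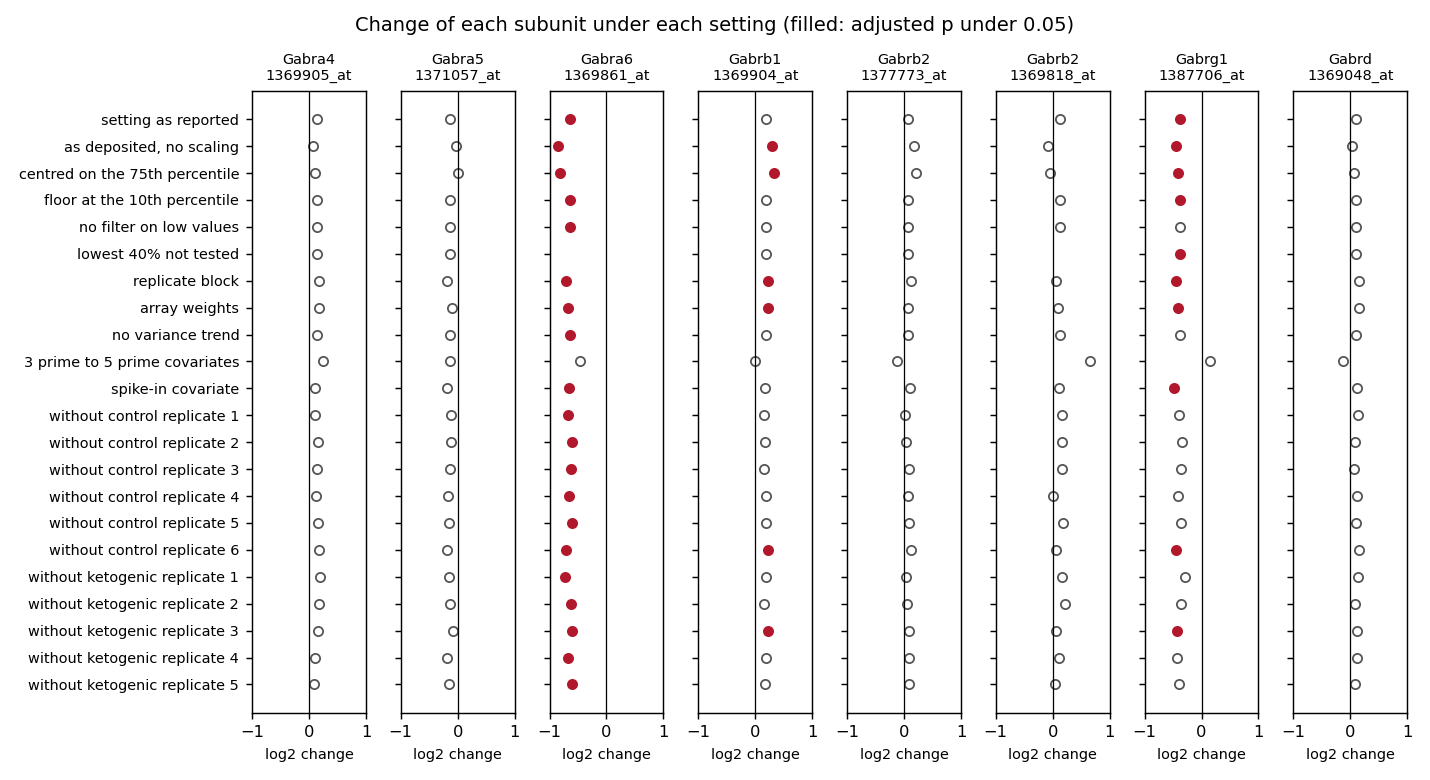
Log2 change of each subunit probe set, ketogenic minus control diet (horizontal axes), under the reported setting and each alternative (rows). Filled points passed an adjusted p of 0.05. Gabra6 is filled under each alternative that tested it other than the one with 3 prime to 5 prime covariates, and Gabrg1 loses its call in 9 of 11 fits that left out 1 array.

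The rest of the receptor family and its partners were read from 5 lists holding 58 genes, of which 39 were tested. Of these 5 fell and 0 rose by limma, against 8.04% lower and 8.85% higher over all 8397 genes, and 2 were higher at an unadjusted p under 0.05. Their median log2 change was -0.07, against -0.0032 over all genes. The count that fell was 3 without control replicate 1, 2, 3 or 5 or ketogenic replicate 2 or 5, and 2 without ketogenic replicate 4. It was 0 when the RNA quality ratios of Gapdh and actin, described above, were covariates. In that fit diet and ratio can hardly be told apart.

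Among other subunit genes 6 of 12 were tested, and 2 of them fell. Gabre, a minor subunit encoded on the X chromosome, had control values of 6.05 to 6.35. It was 5.71, 5.71, 5.64, 5.48 and 5.69 on the ketogenic diet, and the groups did not overlap, as for 6.99% of all 11899 tested probe sets. Gabre fell by 0.61 (SE 0.11, limma adjusted p = 0.00481), or 1.52-fold. Gabrr1, a rho subunit best known from retina, had control values of 5.56 to 5.92 and was 5.31, 5.07, 5.46, 4.92 and 4.36 on the ketogenic diet. It fell by 0.71 (SE 0.19, limma adjusted p = 0.0225), and its ketogenic mean of 5.03 lay below the testing level, so that it passed the filter only through its control values. Each has a further probe set below the testing level, which was not tested. Gabra3, Gabrg3, Gabrr2 and Gabrr3 were at 0.09, -0.11, -0.15 and -0.18 and did not pass. A dimmer tested probe set of Gabrr2 was at -0.63 (adjusted p = 0.186). Its ketogenic mean of 5.01 lay below the testing level, so it too passed the filter only through its control values. Control means of these 6 genes lay between 5.74 and 6.25, near the Gabra6 level on the array, and their signals likewise carry no detection call.

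Of 18 tested genes for anchoring and trafficking of the receptor, 1 fell and 0 rose, with 1 higher and 2 lower at an unadjusted p under 0.05, and the median was 0.08. Hap1, an adaptor that takes part in returning receptors to the membrane, fell by 0.49 (SE 0.11, limma adjusted p = 0.0123). It was 9.07, 9.02, 9.56, 8.78 and 8.79 on the ketogenic diet against 9.46 to 9.63 on the control diet, so that ketogenic replicate 3 lay among the controls and the other 4 below them. Gphn, the scaffold gephyrin that clusters receptors at synapses, was at 0.12 (adjusted p = 0.323), a gene named after its values were seen. The motor protein gene Kif5a was at 0.20 (adjusted p = 0.258) by its brightest probe set, while its other one was called higher, at 0.25 (adjusted p = 0.0181). Over all 5 lists 11 further probe sets of 9 genes were tested, and this was the 1 called.

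Tspo, the mitochondrial protein linked to neurosteroid synthesis, fell by 0.39 (SE 0.12, limma adjusted p = 0.0385), 1 of 3 tested genes of receptor modulation. It is also expressed by microglia, of whose 6 tested markers 2 were called lower and 0 higher, with 3 lower and 1 higher (C1qb, 0.31) at an unadjusted p under 0.05, and their summed level was 871 to 1082 on control and 771 to 947 on ketogenic arrays. Dbi, which encodes the diazepam binding inhibitor, was at -0.28 (adjusted p = 0.0751). Of 6 tested genes of GABA synthesis, uptake and breakdown 0 were called, and 0 passed an unadjusted p under 0.05, with Abat at -0.14 and Gad1 at 0.10 closest to the threshold. These are the brightest probe sets, and the other tested ones were lower at an unadjusted p under 0.05, at -0.27 for Abat (adjusted p = 0.106) and -0.38 for Gad1 (adjusted p = 0.0706), so that the 2 probe sets of Gad1 differed in sign. Of 6 tested genes listed for the chloride gradient 1 was called, the carbonic anhydrase gene Car2, which fell by 0.33 (SE 0.10, limma adjusted p = 0.0382). In this list 1 was higher and 1 lower at an unadjusted p under 0.05, the higher being Car7 at 0.27 (limma adjusted p = 0.0682). Slc12a5, the neuronal chloride exporter, was at 0.08 (adjusted p = 0.509).

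**Figure D4:**
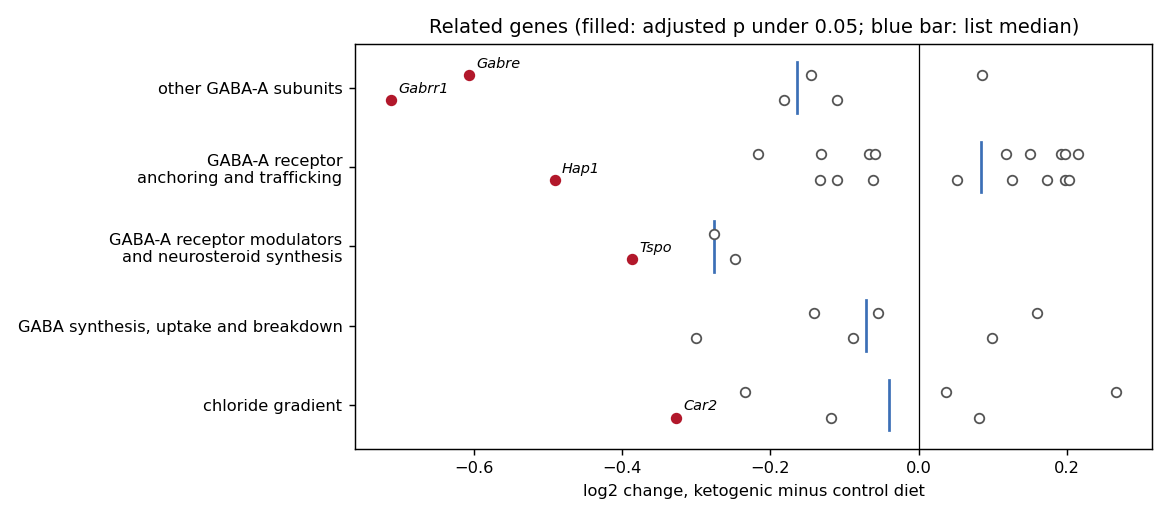
Log2 change, ketogenic minus control diet (horizontal axis), of the tested genes in 5 lists related to the receptor (vertical positions within a list carry no meaning). Filled red points passed an adjusted p of 0.05, and the blue bar is the list median. The 5 filled points all lie below 0, from -0.71 for Gabrr1 to -0.33 for Car2.

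The genes whose values followed the called subunits most closely were found over 11 arrays among 8396 other genes, as descriptions with no test. For Gabra6 they were Ppp2r2b (Pearson r = 0.94), Cyrib (r = 0.94) and Rnf44 (r = 0.93), and all 3 were themselves called lower, so the shared difference between diets enters these values. After each diet mean was subtracted they were Abcc1 (r = 0.94), Ssbp2 (r = 0.92) and Mnt (r = 0.91). For Gabrg1 they were Ptp4a1 (r = 0.96), Pam (r = 0.95) and Syt11 (r = 0.92), all called lower. With diet means subtracted Ptp4a1 (r = 0.93) and Pam (r = 0.91) were again first, followed by Bri3 (r = 0.87). The points share the arrays and their RNA quality.

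Within the family, with diet means subtracted, Gabra6 and Gabrd ran opposite across the 11 arrays (r = -0.82), as did Gabrb2 and Gabrg1 (r = -0.65). Gabrb1 and Gabrd ran together (r = 0.68). These were picked, after the values had been seen, as the largest r in size among all pairs of the 7 genes. Control replicate 6 was the lowest control for Gabra6 and the highest for Gabrd. Gabra6 and Gabrg1, both called lower, had r = 0.64 over all values and r = 0.14 once the diet means were subtracted. These are correlations over 11 arrays that share scaling and RNA quality, given with no test.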

How the data were processed

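The 11 arrays measured total RNA of hippocampus. Each deposited value is the linear intensity of a probe set on an array, and how the authors made them is not given in the sources used here. They were quantile normalized between arrays, values below the 5th percentile (an intensity of 5.02) were set to it, and log2 was taken. The 57 control probe sets and the 25% with the lowest mean were not tested. Ketogenic minus control was fitted by limma (version 3.58.1, R version 4.3.3, functions lmFit and eBayes, trended prior variance, two-sided, Benjamini-Hochberg over 11899 probe sets, threshold 0.05), and probe sets under it are termed called. In lists, a gene was represented by its brightest tested probe set. Names came from the platform annotation, updated through gene identifiers with a RefSeq table of GRCr8 (12754 of 12789 single-symbol probe sets found).

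The members and lists were chosen with earlier results of these data known. Named genes were every member, the called genes of each related list or its 2 with the smallest p, markers beside a called member, and the 3 genes most like each called member. Other names were chosen after their values were seen. The fit of this comparison was tested on simulated data of 11899 probe sets, where 68 of 100 changes of 0.5 and 94 of 100 changes of 1 log2 unit were called. In the same simulation 9 unchanged probe sets were called. Its values were drawn independently for each probe set, with no RNA quality difference between diets and with far fewer changes than were called here. It therefore does not give the error rate of the real comparison. Alternatives were other scalings, floors and filters, a replicate block, array weights, no variance trend, 2 sets of covariates and leaving out each array. Precision is limited by how many arrays there are. The labels name no batch, and 1 array, ketogenic replicate 3, has its own title suffix of unstated meaning, so no batch could be modelled.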

Additional observations from a re-analysis of the deposited data

Results flagged for a closer look

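Of 28 groups of values, those of the subunits and of the called related genes, 1 held an array well apart from its group. Chance flags about 1 in 20 groups. No subunit of the 7 was among them. For the second Car2 probe set (1386922_at), ketogenic replicate 3 was at 8.94 while the other ketogenic arrays lay at 8.08 to 8.25.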

How the results depend on the processing

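Gabra6 kept its direction in all 20 alternatives that tested it and its call in 19, with log2 changes from -0.84 to -0.47. Of the subunit probe sets, 1 was called higher (Gabrb1) in place of 0 on the values as deposited, centred on the 75th percentile, with the replicate block and with array weights. The count called lower was 1 in place of 2 without a filter, with the lowest 40% not tested and without a variance trend, and 0 with the 3 prime to 5 prime covariates. Leaving out 1 array gave 0 to 1 higher and 1 to 2 lower. Over all probe sets, 1026 were higher and 936 lower as reported. There were 1076 and 1736 as deposited, so that 38.3% of the calls were higher in place of 52.3%. On that scale every ketogenic array had a lower median than any control array. Array weights gave 1600 and 1536, the 3 prime to 5 prime covariates 0 and 6, the spike-in covariate 402 and 365, and leaving out 1 array 406 to 1583 and 391 to 1580. Of the related genes, 5 were lower as reported, 3 without a filter, 3 with the lowest 40% not tested, 0 with the 3 prime to 5 prime covariates, 2 with the spike-in covariate and 2 to 7 without 1 array. In place of 0 higher there were 2 as deposited, 3 centred on the 75th percentile, 1 with the replicate block, 2 with array weights, 1 with genes as the mean of their probe sets and 0 to 1 without 1 array. Signs turned for Gabra5 (0.011) centred on the 75th percentile, for the dimmer Gabrb2 probe set on the deposited scale (-0.075) and at the 75th percentile (-0.042), and with the 3 prime to 5 prime covariates for Gabrd (-0.12), Gabrb1 (-0.011), the brighter Gabrb2 probe set (-0.13) and Gabrg1 (0.14). The cause was not tested, other than that a stricter filter leaves 6 of the 8 probe sets and not Gabra6. Both diets use the same replicate numbers. Deviations of same-numbered arrays correlated at 0.0089 to 0.077, so they were not taken to pair samples. With the replicate block Gabrb1 was at 0.23 (limma adjusted p = 0.0368), Gabra6 at -0.72 and Gabrg1 at -0.45.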
